A study of Mus musculus with 12 samples.

Results

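The 9 genes Phgdh, Psat1, Psph, Shmt1, Shmt2, Mthfd1, Mthfd2, Mthfd1l and Aldh1l2 encode enzymes of serine synthesis and of one-carbon metabolism. They were found by name, and 15 probes of the array read them: 3 for Phgdh, 2 each for Psat1, Psph, Shmt1 and Mthfd1l, and 1 each for the other four. They are 9 of 30139 genes or transcripts on the array and 9 of the 20084 that were tested. In polyps of Apc mutant mice 6 of the 9 were higher than in normal tissue of the same mice. Of all tested genes 20.5% were higher and 24.9% lower at the same threshold. Shmt1, Mthfd1 and Aldh1l2 did not pass the test.

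The series measured RNA of colorectal tissue from female C57BL/6N mice aged 14 weeks, kept on a standard chow without drug treatment named in the labels, on 12 single-colour Agilent arrays. The 3 groups of 4 arrays were normal tissue of wild-type mice (mice 102, 104, 105 and 108), normal tissue of Apc+/Δ716 mice (mice 103, 106, 107 and 110) and polyps of Apc+/Δ716 mice (again mice 103, 106, 107 and 110). The Apc Δ716 allele truncates the tumour suppressor that restrains Wnt signalling. The mutant mice carry it in the germline on 1 of their 2 copies, so the normal tissue called Apc normal here is mutant in genotype; the titles write the genotype as Apc+/-. How many polyps entered a sample is not stated in the labels.

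Serine is made from an intermediate of glycolysis by Phgdh, Psat1 and Psph acting in turn. The hydroxymethyltransferases Shmt1, in the cytosol, and Shmt2, in mitochondria, then split serine into glycine and a one-carbon unit carried on tetrahydrofolate. Mthfd1 interconverts the folate-bound units in the cytosol, while Mthfd2, Mthfd1l and Aldh1l2 act on them in mitochondria, from which formate leaves for purine and thymidylate synthesis. Proliferating cells are known to draw on this supply, and the mitochondrial enzyme Mthfd2 is known as an enzyme of embryonic and tumour tissue that is low in most adult tissues.

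Each measurement is the signal of a 60-base oligonucleotide. The following probes are shown because they read 3 genes that rose in polyps, Phgdh, Psat1 and Psph, and Shmt1 and Mthfd1, 2 of the 3 that were not called. All lie on mm9, the build of the scanner files, and are written 5′ to 3′ in lower case with no part marked. Their exon or UTR placement was not analysed here.
Phgdh probe A_55_P2143041, chr3:98117303-98117361, minus strand: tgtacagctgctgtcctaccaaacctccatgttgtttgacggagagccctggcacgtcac
Psat1 probe A_66_P121495, chr19:15991586-15991645, minus strand: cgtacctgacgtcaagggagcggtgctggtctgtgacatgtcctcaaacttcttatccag
Psph probe A_66_P139876, chr5:130272308-130272367, minus strand: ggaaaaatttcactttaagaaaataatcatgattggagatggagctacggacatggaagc
Shmt1 probe A_52_P673499, chr11:60603099-60603158, minus strand: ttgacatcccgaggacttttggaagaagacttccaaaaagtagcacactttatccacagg
Shmt1 probe A_55_P2186584, chr11:60620453-60620512, minus strand: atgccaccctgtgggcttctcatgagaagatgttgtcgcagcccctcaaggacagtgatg
Mthfd1 probe A_51_P392928, chr12:77418622-77418681, plus strand: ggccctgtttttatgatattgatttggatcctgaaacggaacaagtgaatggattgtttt

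For each gene the brightest probe over the 12 arrays was used. A level below is log2 of the probe's background-subtracted signal minus the 75th percentile of its array, so a level of 0 is the signal of that percentile, and a difference of 1 is a doubling. Levels of different genes come from different probes and are not set against each other. Group values are means ± SD over 4 arrays and differences are given ± SE. Differences were tested with limma on the 8 arrays of each comparison, and a gene was called at a Benjamini-Hochberg adjusted p under 0.05 over all 20084 genes.

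The polyps differed widely from normal tissue, so the members are read against the whole array. Between polyps and Apc normal tissue 45.5% of the tested genes were called, 20.5% higher and 24.9% lower. Of the 9 members 6 were called higher and 0 lower, also at an unadjusted p under 0.05, and the median difference of the 9 was 0.998 against −0.06 for all tested genes. Between polyps and wild-type tissue 60.2% of genes were called (27.4% higher and 32.8% lower), and 7 members were higher and 0 lower, with a median of 1.76 against −0.05. Aldh1l2, among these 7, entered the test only through the polyps, and its call was lost without the filter on dim probes, which leaves 6. In each polyp comparison 6 members did not overlap between the groups, beside 45.1% of all tested genes against Apc normal and 56.7% against wild-type tissue. Between Apc normal and wild-type tissue 0.169% were called (0.149% higher and 0.0199% lower) and none of the 9 members was. Both polyp comparisons use the same polyp arrays, so they are not independent. The wild-type arrays had a slide of their own, so polyps and wild-type tissue also differ by slide.

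Markers of several other cell types that a colorectal sample can hold moved with the polyps, and others kept overlapping ranges. Counts of genes that rose or fell are calls in polyps against Apc normal tissue, unless wild-type tissue is named. All 10 smooth muscle genes fell, with Lmod1 well above background on no polyp array. The log2 of their summed signals was 4.92 to 5.89 in polyps, 8.28 to 8.73 in Apc normal and 8.82 to 9.30 in wild-type tissue. Signals were summed on the linear scale here and for the other ranges below, so the brightest genes of a list weigh most. Of 8 enteric nerve genes 7 fell (−1.26 to −0.53 in polyps, 0.30 to 0.74 in Apc normal and 0.59 to 1.43 in wild-type tissue). Of 8 neutrophil genes 6 rose (5.73 to 7.07 in polyps against 4.58 to 5.42 in Apc normal and 5.31 to 5.53 in wild-type tissue). In wild-type tissue Clec4e, Cxcr2 and Mmp9, and in Apc normal tissue Cxcr2, were well above background on no array. Of 10 epithelial genes, all detected in every group, 5 fell and none rose (8.78 to 9.08 against 9.39 to 9.72 and 9.34 to 9.69). All 9 tested proliferation genes of 10 rose, and only Aurkb was well above background nowhere (5.95 to 6.15 against 4.84 to 5.10 and 4.77 to 5.12). Summed levels in polyps, Apc normal and wild-type tissue were 6.00 to 6.79, 6.03 to 7.00 and 6.09 to 6.98 for fibroblast and matrix genes (1 of 8 rose and 2 fell), 3.90 to 4.55, 3.62 to 4.78 and 3.46 to 4.15 for immune genes (1 of 9 tested rose, with Cd8a well above background nowhere) and 3.97 to 4.25, 3.78 to 4.90 and 3.83 to 4.69 for endothelial genes (1 of 7 rose and 1 fell). For adipocyte genes, with Lep well above background nowhere, they were −0.18 to 1.10, 0.63 to 3.97 and 1.04 to 3.16, and 1 of 4 tested fell. Against wild-type tissue the counts higher and lower were 0 and 9 of 10 epithelial genes and 6 and 2 of 8 neutrophil genes. They were 3 and 0 of 9 tested immune genes, 3 and 1 of 7 endothelial genes and 2 and 2 of 8 fibroblast and matrix genes. Of 4 tested adipocyte genes 2 were lower. The counts of smooth muscle, enteric nerve and proliferation genes were unchanged. The part of these shifts in the members' values was not tested. In such bulk samples a change in the share of a cell type and a change of RNA per cell cannot be told apart.

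**Figure D1:**
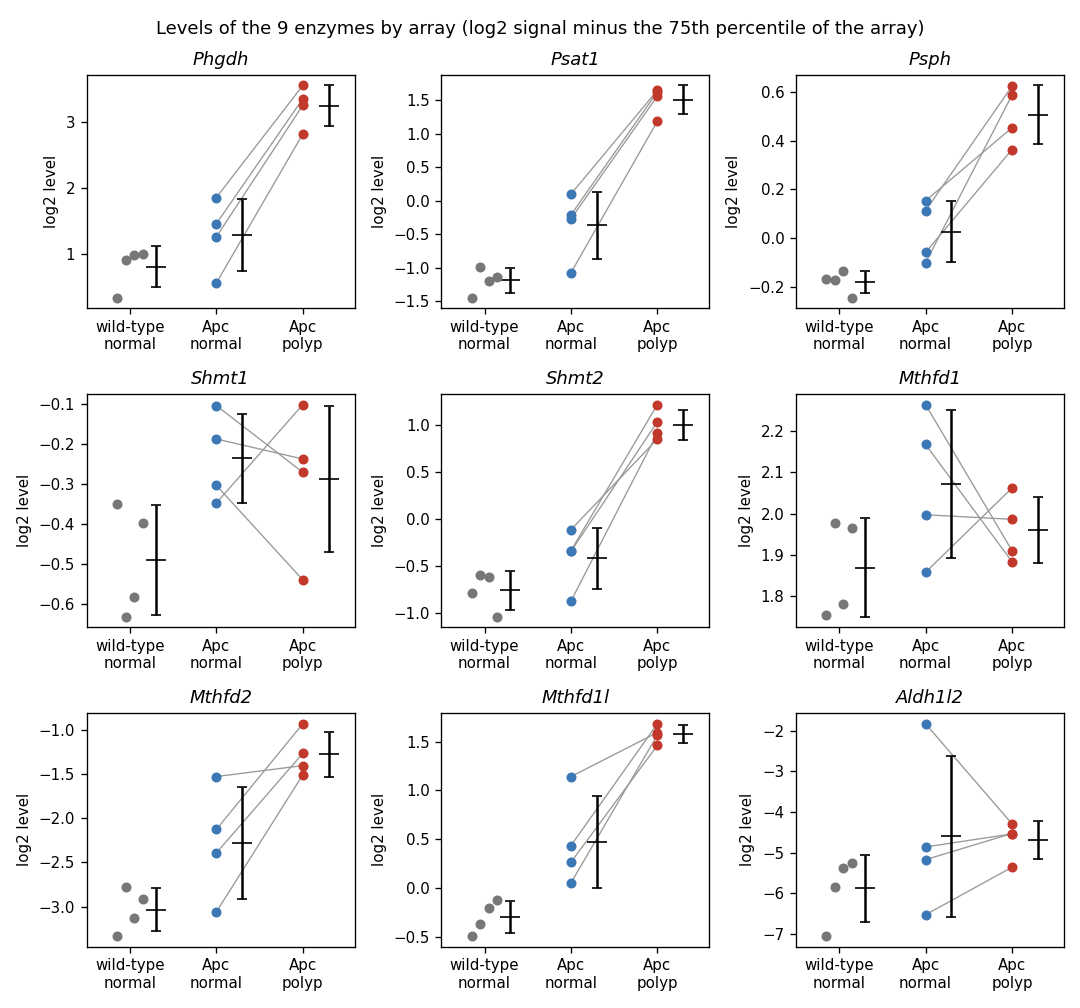
Level of each of the 9 enzymes on every array (y axis, log2 signal minus the array's 75th percentile), with grey points for wild-type normal tissue, blue for Apc normal tissue and red for polyps; lines join the samples of a mouse, and bars give mean ± SD of 4 arrays. Every polyp point lies above every normal point for Phgdh, Psat1, Psph, Shmt2, Mthfd2 and Mthfd1l, whereas the groups interleave for Mthfd1 and Aldh1l2.

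Phgdh, the dehydrogenase that opens the serine pathway, had the largest difference between polyps and Apc normal tissue among the members. Its level in wild-type tissue was 0.33, 0.91, 0.98 and 0.99 in mice 102, 104, 105 and 108. In Apc normal tissue it was 0.55, 1.86, 1.26 and 1.46, and in polyps 2.82, 3.56, 3.26 and 3.36, in mice 103, 106, 107 and 110. All polyps lay above all normal samples of both genotypes, and the Apc normal sample of mouse 103 lay among the wild-type samples. The polyp mean of 3.25 ± 0.31 exceeded the Apc normal mean of 1.28 ± 0.54 by 1.97 ± 0.28, a 3.92-fold difference (limma, adjusted p = 0.000956). Against the wild-type mean of 0.80 ± 0.32 the difference was 2.45 ± 0.20, or 5.45-fold (adjusted p = 3.2e-05).

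The other two probes named Phgdh gave like values. Probe A_55_P2046262, at chr3:98117215-98117274, was higher in polyps than in Apc normal tissue by 1.995 ± 0.20. Probe A_55_P2092310, by 1.96 ± 0.21, is placed by the scanner files at chr17:53337968-53338027 and not at the Phgdh locus on chromosome 3, and it is not the probe whose levels stand for the gene. The probe printed above for Phgdh is the one whose levels are given.

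Psat1, the aminotransferase of the second step, separated polyps from normal tissue as cleanly. Wild-type levels were −1.44, −0.98, −1.19 and −1.13, Apc normal levels −1.07, −0.21, 0.10 and −0.27, and polyp levels 1.18, 1.62, 1.64 and 1.56. The lowest polyp, that of mouse 103, was more than 1 log2 unit above the highest normal sample. The mean was 1.502 ± 0.22 in polyps, −0.36 ± 0.50 in Apc normal and −1.19 ± 0.19 in wild-type tissue. Polyps exceeded Apc normal tissue by 1.87 ± 0.25 (3.64-fold, limma adjusted p = 0.000671) and wild-type tissue by 2.69 ± 0.14 (6.45-fold, adjusted p = 5.3e-06). The second Psat1 probe, whose sequence is given above, gave 1.53 ± 0.26 for polyps against Apc normal tissue.

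Psph, the phosphatase that releases serine, moved least of the 6 that rose. Its level was −0.17, −0.17, −0.14 and −0.24 in wild-type tissue, −0.06, 0.15, −0.10 and 0.11 in Apc normal tissue and 0.36, 0.45, 0.59 and 0.62 in polyps. The 3 groups did not overlap at any point. Polyps (0.51 ± 0.12) exceeded Apc normal tissue (0.03 ± 0.13) by 0.48 ± 0.11, a 1.40-fold difference with limma adjusted p = 0.0085. They exceeded wild-type tissue (−0.18 ± 0.05) by 0.69 ± 0.09, a 1.61-fold difference (adjusted p = 0.000232). Its second probe, printed above, differed by 0.39 ± 0.10 between polyps and Apc normal tissue.

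The 2 hydroxymethyltransferases parted. Shmt2, the mitochondrial one, had levels of −0.78, −0.59, −0.61 and −1.04 (wild type), −0.33, −0.34, −0.87 and −0.11 (Apc normal) and 1.22, 1.04, 0.92 and 0.86 (polyps). Polyps stood apart from both normal groups, which overlapped. The polyp mean of 1.01 ± 0.16 exceeded the Apc normal mean of −0.41 ± 0.32 by 1.42 ± 0.18 (2.68-fold, limma adjusted p = 0.000485) and the wild-type mean of −0.75 ± 0.21 by 1.76 ± 0.13 (3.39-fold, adjusted p = 2.02e-05).

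Shmt1, the cytosolic enzyme, had levels of −0.35, −0.63, −0.58 and −0.40 in wild-type tissue, −0.30, −0.35, −0.19 and −0.10 in Apc normal tissue and −0.54, −0.10, −0.24 and −0.27 in polyps. The polyps spanned the Apc normal range and overlapped the wild-type samples, 2 of which lay below every polyp. Their mean of −0.29 ± 0.18 differed from the Apc normal mean of −0.24 ± 0.11 by −0.05 ± 0.12, with a 95% interval of −0.33 to 0.23 (limma, adjusted p = 0.757). Against wild-type tissue (−0.49 ± 0.14) the difference was 0.20 ± 0.12, with an interval of −0.07 to 0.48 (adjusted p = 0.172). Its other probe, printed above, gave −0.08 ± 0.17 for polyps against Apc normal tissue.

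Mthfd1, the cytosolic enzyme that joins 3 steps of folate interconversion in a single protein, showed levels of 1.75, 1.98, 1.78 and 1.97 in wild-type tissue. They were 2.17, 1.997, 1.86 and 2.26 in Apc normal tissue and 1.88, 1.99, 2.06 and 1.91 in polyps, so the 3 groups overlapped. Polyps (1.96 ± 0.08) and Apc normal tissue (2.07 ± 0.18) differed by −0.11 ± 0.12, with a 95% interval of −0.38 to 0.16 (limma, adjusted p = 0.471). Polyps and wild-type tissue (1.87 ± 0.12) differed by 0.09 ± 0.09, with an interval of −0.12 to 0.30 (adjusted p = 0.409). These intervals leave out a doubling in either direction.

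Mthfd2, the mitochondrial dehydrogenase and cyclohydrolase, was higher in polyps with a wide spread in Apc normal tissue. Its level was −3.33, −2.78, −3.12 and −2.91 in wild-type tissue, −3.06, −2.13, −1.53 and −2.39 in Apc normal tissue and −1.51, −0.93, −1.41 and −1.27 in polyps. The highest Apc normal sample (mouse 107) and the lowest polyp (mouse 103) differed by little, and the groups did not overlap. The polyp mean of −1.28 ± 0.25 exceeded the Apc normal mean of −2.28 ± 0.63 by 0.998 ± 0.31, a 1.997-fold difference (limma, adjusted p = 0.0287). Leaving out the polyp of mouse 106, 107 or 110 or the Apc normal array of mouse 110 ended this call (adjusted p = 0.0795, 0.0515, 0.0613 and 0.0639). Against wild-type tissue (−3.04 ± 0.24) the difference was 1.76 ± 0.16, or 3.38-fold (adjusted p = 5.55e-05).

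Mthfd1l, the mitochondrial synthetase that releases formate, had levels of −0.49, −0.37, −0.20 and −0.12 in wild-type tissue, 0.05, 0.44, 0.27 and 1.14 in Apc normal tissue and 1.57, 1.68, 1.46 and 1.59 in polyps. The 3 groups lay in separate ranges, with the Apc normal sample of mouse 110 nearest the polyps. Polyps (1.58 ± 0.09) exceeded Apc normal tissue (0.47 ± 0.47) by 1.10 ± 0.22, a 2.14-fold difference (limma, adjusted p = 0.00476). Against wild-type tissue (−0.29 ± 0.16) the difference was 1.87 ± 0.10, or 3.65-fold (adjusted p = 6.72e-06). A probe assigned to another transcript of the gene, A_55_P2000280, differed by 1.002 ± 0.19 between polyps and Apc normal tissue.

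Aldh1l2, the mitochondrial dehydrogenase that oxidises the formyl group, gave a dim signal. It was well above background on 4 of 4 polyp, 2 of 4 Apc normal and 3 of 4 wild-type arrays, and it entered the test through the polyps. Levels were −7.05, −5.84, −5.38 and −5.25 in wild-type tissue, −6.53, −5.17, −1.83 and −4.86 in Apc normal tissue and −5.36, −4.53, −4.29 and −4.54 in polyps. The Apc normal sample of mouse 107 stood far above all others. Polyps (−4.68 ± 0.47) and Apc normal tissue (−4.60 ± 1.98) differed by −0.08 ± 0.88, with a 95% interval of −2.12 to 1.96 (limma, adjusted p = 0.949). Without the Apc normal array of mouse 107 the difference turned to 0.84 and was still not called (adjusted p = 0.161). Against wild-type tissue (−5.88 ± 0.82) the difference was 1.20 ± 0.41 (adjusted p = 0.0344) with overlapping groups. This call was lost with no filter on dim probes (adjusted p = 0.0526), with all 12 arrays in 1 fit (0.231) and with slide as a random block (0.195). It was also lost without the wild-type array of mouse 104 (adjusted p = 0.0665) or without the polyp of mouse 106, 107 or 110 (0.0768, 0.0833 and 0.0746).

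**Figure D2:**
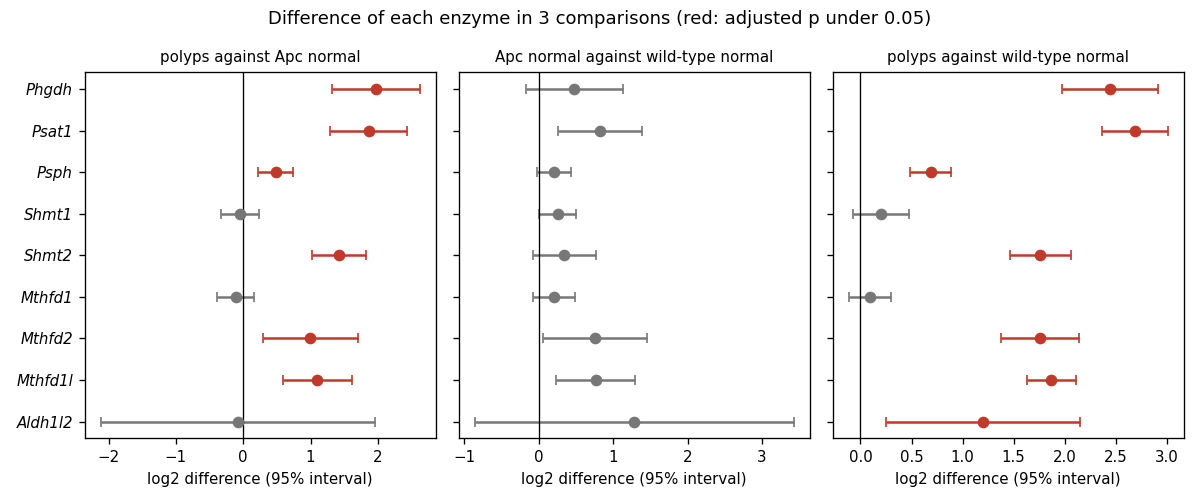
Difference of each enzyme in the 3 comparisons (x axis, log2; points are differences of group means of 4 arrays, bars are 95% intervals, and red marks a limma adjusted p under 0.05). Red points are 6 of 9 in the left panel, 0 of 9 in the middle one and 7 of 9 in the right one. Of all tested genes 45.5%, 0.169% and 60.2% were called in these comparisons. The 7 include Aldh1l2, which entered the test through the polyps and lost this call in 7 of 18 alternatives.

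Normal and polyp samples came from the same mice, so the difference could be read within each mouse. Phgdh was higher in the polyp by 2.27, 1.71, 2.002 and 1.90 in mice 103, 106, 107 and 110, and Psat1 by 2.26, 1.83, 1.54 and 1.83. Shmt2 was higher by 1.55, 1.38, 1.79 and 0.96. These 3 genes thus showed a difference near or above a doubling in all 4 mice. Psph was higher by 0.42, 0.30, 0.69 and 0.51.

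Mthfd2 was higher by 1.55, 1.19, 0.12 and 1.12, with mouse 107 near 0. Mthfd1l was higher by 1.51, 1.25, 1.19 and 0.45, with mouse 110 lowest. In both cases the mouse with the small difference was the one with the highest level of the gene in its normal tissue. The normal level is subtracted in this difference, so such a pattern is partly built in. Shmt1 (−0.24 to 0.25) and Mthfd1 (−0.36 to 0.20) were each higher in the polyp of 1 of 4 mice. Aldh1l2 was higher in 3 of 4 mice, by 1.17, 0.64 and 0.32, and lower by 2.46 in mouse 107.

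**Figure D3:**
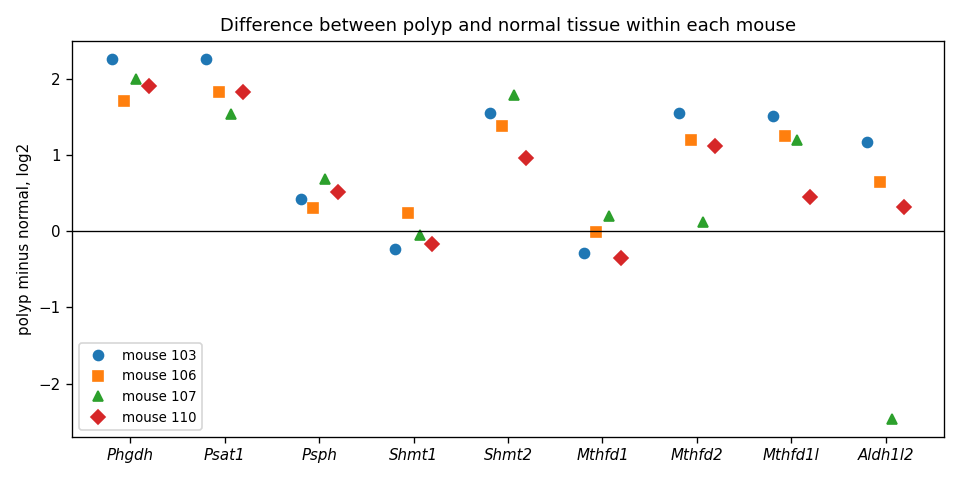
Polyp minus normal level of each enzyme within each of the 4 Apc mutant mice (y axis, log2; one symbol per mouse). The 4 symbols lie above 0 for Phgdh, Psat1, Psph, Shmt2, Mthfd2 and Mthfd1l, lie on both sides of 0 for Shmt1 and Mthfd1, and for Aldh1l2 mouse 107 lies at −2.46.

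The second comparison set normal tissue of the mutant mice against that of wild-type mice. These mutant mice also bore polyps, so genotype and the bearing of polyps cannot be told apart in it. None of the 9 members was called, while 4 (Psat1, Shmt1, Mthfd2 and Mthfd1l) were higher at an unadjusted limma p under 0.05. Of all tested genes 17.1% were under that threshold, and 8.22% of all tested genes were under it and higher. The difference was above 0 for all 9, as it was for 47.1% of tested genes, and its median over the 9 was 0.48 against −0.02 for all. The difference of Aldh1l2 was 1.28 ± 0.93, and 0.36 without the Apc normal array of mouse 107. The next were those of Psat1 (0.82 ± 0.24, adjusted p = 0.175), Mthfd1l (0.77 ± 0.23, adjusted p = 0.175) and Mthfd2 (0.76 ± 0.30, adjusted p = 0.265). Psph (0.21 ± 0.10), Shmt1 (0.25 ± 0.11) and Mthfd1l did not overlap between the groups, against 10.3% of all tested genes. For Phgdh the difference was 0.48 ± 0.28, for Shmt2 0.34 ± 0.18 and for Mthfd1 0.20 ± 0.12. Some cell type markers also differed here at an unadjusted limma p under 0.05, though none was called. Lower were 7 of 10 smooth muscle and 4 of 8 enteric nerve genes. Of 8 neutrophil genes 4 were higher and 1 lower, and of 10 epithelial genes 0 passed. Their part in the members' values was not tested.

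The Apc normal samples were not alike. That of mouse 103 was the lowest of its group for 5 of 9 members and lay at or below the highest wild-type sample for 4. That of mouse 110 was the highest for 4 members. Without the Apc normal array of mouse 103, Psat1 passed the test (1.06, adjusted p = 0.0309), and the count of all called genes went from 34 to 530. All wild-type arrays were on 1 slide and the mutant arrays, normal and polyp, on others. Slide and genotype therefore cannot be told apart by a fixed term, here or between polyps and wild-type tissue. With slide as a random block, whose estimated correlation was negative (−0.0816), the SE of Mthfd1l went from 0.230 to 0.177 and the gene was called (0.77, adjusted p = 0.0416), while the other 8 members were not.

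The mean of the Apc normal group lay between those of wild-type tissue and polyps for 6 of the 9 members, namely the 6 that rose, and for 52.8% of tested genes. For Phgdh, Psat1, Shmt2 and Mthfd2 the wild-type and Apc normal samples overlapped, so these neighbours in the order did not separate. For Psph and Mthfd1l each group occupied its own range.

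Cytosolic and mitochondrial partners were compared by the ratio of their signals within an array, which does not depend on how arrays are scaled. The height of such a ratio has no meaning across probes, so only its change between groups is given, tested by an exact two-sided permutation test whose smallest possible p is 0.0286. Of the 12 tests, none had an adjusted p under 0.05, and the smallest adjusted p was 0.0686. Shmt2 over Shmt1 was higher in polyps than in Apc normal tissue by 1.47 on the log2 scale (exact p = 0.0286, adjusted p = 0.0686) and higher than in wild-type tissue by 1.56 (the same p). Apc normal and wild-type tissue differed by 0.09 (exact p = 0.914). The log2 ratio was 1.13 to 1.76 on the polyp arrays and −0.68 to 0.04 on the normal arrays of both genotypes.

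Mthfd1l over Mthfd1 was higher in polyps by 1.21 against Apc normal and by 1.78 against wild-type tissue, without overlap (each exact p = 0.0286, adjusted p = 0.0686). Apc normal exceeded wild-type tissue by 0.57 (exact p = 0.0857). Mthfd2 over Mthfd1 was higher in polyps by 1.11 against Apc normal tissue with overlapping groups (exact p = 0.0857, adjusted p = 0.129) and by 1.67 against wild-type tissue without overlap (exact p = 0.0286, adjusted p = 0.0686). Aldh1l2 over Mthfd1 differed by 0.03 between polyps and Apc normal tissue (exact p = 1.0) and by 1.11 between polyps and wild-type tissue (exact p = 0.0857). Paired by mouse, the smallest p that 4 mice allow is 0.125, which both Shmt2 over Shmt1 and Mthfd1l over Mthfd1 gave.

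**Figure D4:**
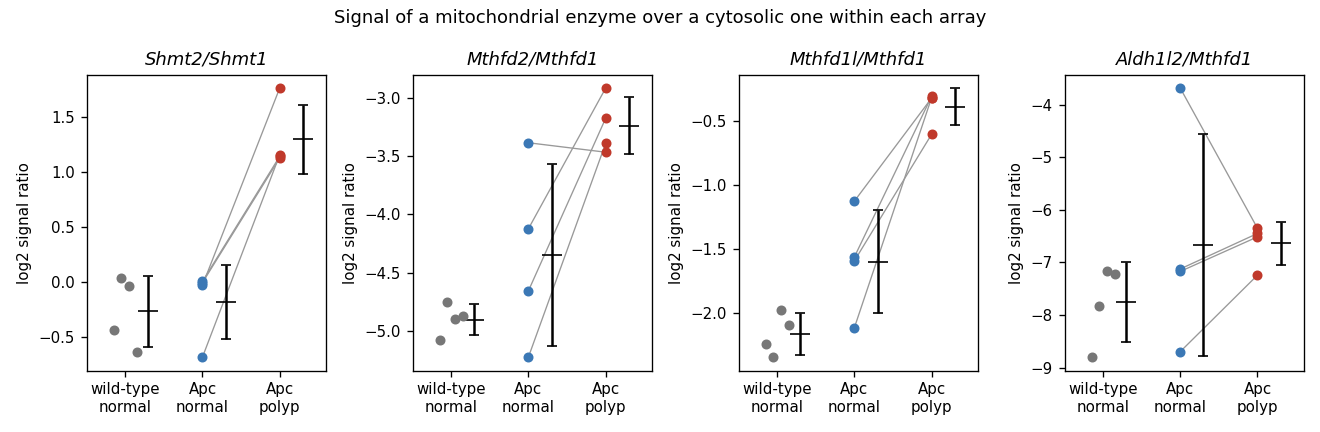
Log2 ratio of the signals of a mitochondrial enzyme and a cytosolic one on each array (y axis; grey wild-type normal, blue Apc normal, red polyps; lines join the samples of a mouse, and bars are mean ± SD of 4 arrays). Polyps lie above all normal samples for Shmt2/Shmt1 and Mthfd1l/Mthfd1, while one Apc normal sample lies among the polyps for Mthfd2/Mthfd1 and above them for Aldh1l2/Mthfd1.

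Among the members, profiles over the 12 arrays were compared by the root-mean-square difference of levels centred on each gene's own mean, as a description. The arrays share slides and the groups differ, so the measure mixes group differences and spread within groups. Phgdh and Psat1 were nearest among the risers (0.266), and Shmt1 and Mthfd1 were the nearest pair of all (0.163). Shmt2 was nearest to Mthfd1l (0.319), and so was Mthfd2 (0.407). Aldh1l2 was at least 0.922 from every other member.

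Among all tested genes with a symbol, those nearest to Phgdh were Pcdhb21 (0.210), the cyclin-dependent kinase subunit gene Cks1b (0.249) and Nr4a1 (0.253), an orphan nuclear receptor gene. Nearest to Psat1 were Muc20 (0.230), a mucin gene, Tnfrsf22 (0.236) and Spns2 (0.238). Nearest to Shmt2 were 2 genes of DNA replication and repair, Chtf18 (0.142) and Fanca (0.165), and Nfkbie (0.179). Nearest to Mthfd2 were P4ha2 (0.222), a collagen prolyl hydroxylase gene, Adora2b (0.226), an adenosine receptor gene, and Dusp10 (0.229). Phgdh and Psat1, at 0.266, were farther from each other than either was from the 3 genes named for it. Those 3 were picked as the nearest of all tested non-members with a symbol, so their smaller distances follow largely from the picking.

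The genes around the members moved in both directions. Of 17 other folate genes 16 were tested, of which 3 rose and 3 fell in polyps against Apc normal tissue (37.5% called). Folr2 and Folr1, which encode folate receptors, fell by 2.30 ± 0.28 (limma adjusted p = 0.000474) and 1.89 ± 0.18 (adjusted p = 0.000162). Mthfd2l, a mitochondrial relative of Mthfd2, rose by 0.86 ± 0.13 (adjusted p = 0.00121). Ggh, the hydrolase that trims polyglutamate from folates, was lower in polyps than in wild-type tissue by a difference of −2.67 ± 0.20 (adjusted p = 2.05e-05).

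Of 10 tested genes of glycine cleavage and glycine use, 1 rose and 1 fell (20% called). Gldc, the decarboxylase of the glycine cleavage system, rose by 0.61 ± 0.15 (limma adjusted p = 0.0108), whereas Dld, the dehydrogenase that this system shares with other complexes, fell by 0.75 ± 0.16 (adjusted p = 0.00694). Gatm, which uses glycine to begin creatine synthesis, had a difference of −1.19 ± 0.55 against Apc normal tissue, which did not pass (adjusted p = 0.116). Against wild-type tissue Gatm fell by 1.57 ± 0.15 (adjusted p = 5.62e-05).

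Of 10 tested genes of the methionine cycle and transsulfuration, 1 rose and 4 fell (50% called). Mtap, the methionine salvage enzyme, rose by 2.10 ± 0.18 (limma adjusted p = 0.000114). Cth, the last enzyme on the route from homocysteine to cysteine, fell by 2.37 ± 0.28 (adjusted p = 0.000409), and Ahcyl2 fell by 2.66 ± 0.36 (adjusted p = 0.000767). Of 5 tested genes of choline and sarcosine donors, 1 rose, Aldh7a1 by 0.50 ± 0.12 (adjusted p = 0.0111), and 1 fell, the choline dehydrogenase gene Chdh by 1.05 ± 0.22 (adjusted p = 0.00568). Pipox, the third by p, had a difference of −0.51 ± 0.26 (adjusted p = 0.150).

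Of 17 tested genes of serine and glycine transport and serine use, 2 rose and 5 fell (41.2% called). With quantile normalization 5 rose and 4 fell, and with normexp besides 6 rose and 4 fell, so the balance of directions turned with the scaling. Srr, the serine racemase gene, fell by 1.62 ± 0.18 (limma adjusted p = 0.000334). Sptlc2, a subunit of the enzyme that takes serine into sphingolipids, fell by 0.94 ± 0.12 (adjusted p = 0.000528). Sfxn1, the mitochondrial serine carrier, fell by 0.45 ± 0.11 (adjusted p = 0.00913). The medians of the 5 lists so far were between −0.23 and 0.05, beside −0.06 for all tested genes and 0.998 for the 9 members.

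The list of ATF4 targets and amino acid response genes, to which Phgdh, Psat1, Shmt2 and Mthfd2 are also known to belong, had 17 tested genes, of which 7 rose and 1 fell (47.1% called, median 0.32). Slc7a11, the cystine transporter gene, was well above background on 4 of 4 polyp arrays and 1 of 4 Apc normal arrays, so it entered the test through the polyps. Its fitted difference of 4.52 ± 0.61 (limma adjusted p = 0.000717) rests on Apc normal signals that were mostly not above background. Against wild-type tissue, where no array had it well above background, polyps were at least 17.2-fold higher, a bound that was not itself tested. This bound replaces each wild-type signal by the dimmest signal well above background on its array, unless the probe itself was brighter. Trib3, a pseudokinase gene, rose by 2.15 ± 0.34 (adjusted p = 0.00159) and Cebpb by 1.20 ± 0.21 (adjusted p = 0.00271). Against wild-type tissue 27.4% of all tested genes were called higher in polyps and 32.8% lower. The counts higher and lower were 4 and 5 of 16 tested other folate genes and 4 and 2 of 10 for glycine. They were 4 and 5 of 10 for methionine and 0 and 1 of 5 for choline and sarcosine. Serine transport and use had 4 and 8 of 17, and the ATF4 list 8 and 2 of 17. Between Apc normal and wild-type tissue none of the genes of these 6 lists was called. Of these genes 10 had an unadjusted limma p under 0.05, as had 17.1% of all tested genes.

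**Figure D5:**
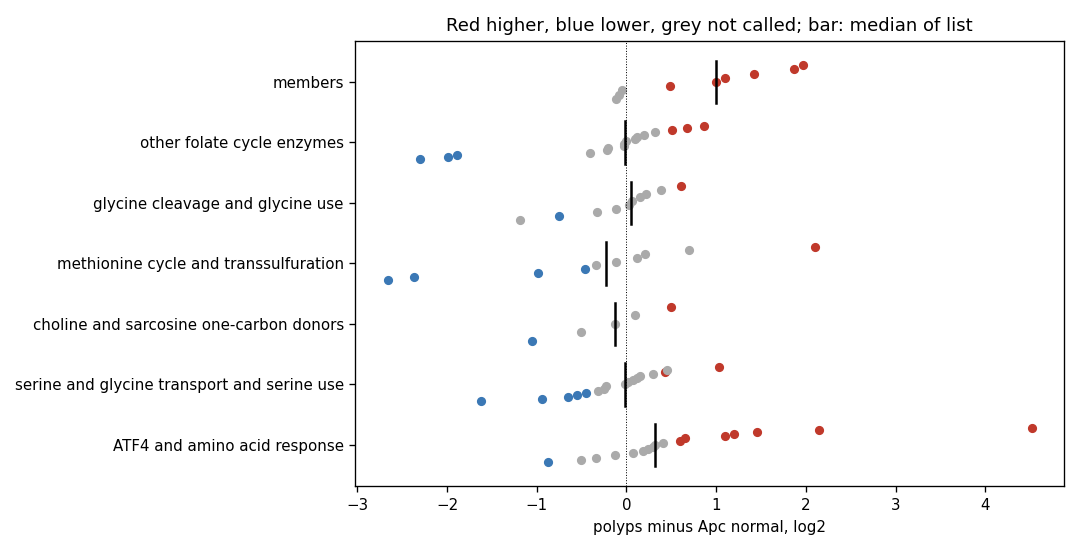
Difference between polyps and Apc normal tissue (x axis, log2) for the 9 enzymes and the tested genes of 6 neighbouring lists; each point is a gene, red if called higher, blue if called lower and grey if not called, and the bar is the list's median. The bar of the 9 enzymes lies at 0.998, and those of the other lists lie between −0.23 and 0.32.

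Promoter sequences were looked at because 6 members rose together. RefSeq (GRCm38.p6) held 9 promoters for 8 of the 9 members, from 250 bases before to 50 bases after the start, and none matched Aldh1l2. On both strands, TGATGNAA, a form of the site bound by ATF4 with CEBP partners, was in no member's promoter and in 3.97% of all 32851 promoters. CACGTG, the E-box bound by Myc among others, was in no member's promoter and in 7.15% of all. CCAAT, the box bound by NF-Y, was in 6 of the 9 member promoters and in 37.4% of all promoters. Counted by gene, it was in 6 of 8 members. The 6 were Phgdh, Psat1, Psph, Shmt1, Mthfd1 and Mthfd2, so they held 4 genes that rose and 2 that did not, and Shmt2 and Mthfd1l, which rose, had no match. None of the 3 motifs contains another. A match of letters is not evidence of binding.

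The 250 bases before the start are printed for 4 genes, 3 that rose, with and without a match, and Shmt1. They run 5′ to 3′ along the gene, and capitals mark CCAAT or its reverse complement.
Phgdh, chr3:98339970-98340219, minus strand: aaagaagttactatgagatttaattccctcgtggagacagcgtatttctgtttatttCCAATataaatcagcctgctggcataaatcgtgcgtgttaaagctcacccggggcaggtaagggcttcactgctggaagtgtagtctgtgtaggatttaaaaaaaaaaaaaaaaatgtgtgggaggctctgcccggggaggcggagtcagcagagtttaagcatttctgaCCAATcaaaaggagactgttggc
Psat1, chr19:15925060-15925309, minus strand: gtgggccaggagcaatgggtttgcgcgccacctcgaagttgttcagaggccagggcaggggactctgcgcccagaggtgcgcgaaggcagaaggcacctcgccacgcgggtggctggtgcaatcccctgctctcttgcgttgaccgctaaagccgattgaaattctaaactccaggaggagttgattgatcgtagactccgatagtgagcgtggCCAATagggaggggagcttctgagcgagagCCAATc
Shmt2, chr10:127522445-127522694, minus strand: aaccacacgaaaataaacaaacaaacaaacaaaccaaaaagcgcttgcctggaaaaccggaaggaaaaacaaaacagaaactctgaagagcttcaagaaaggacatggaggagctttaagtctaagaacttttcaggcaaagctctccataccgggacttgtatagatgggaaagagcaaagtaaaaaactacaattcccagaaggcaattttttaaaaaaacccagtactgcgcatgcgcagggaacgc
Shmt1, chr11:60811266-60811515, minus strand: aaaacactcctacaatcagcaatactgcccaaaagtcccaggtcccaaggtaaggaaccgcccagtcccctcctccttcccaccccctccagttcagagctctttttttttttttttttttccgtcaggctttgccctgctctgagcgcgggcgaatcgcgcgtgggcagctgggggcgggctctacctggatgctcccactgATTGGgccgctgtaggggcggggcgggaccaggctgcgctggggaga
In Phgdh the matches begin 193 and 23 bases before the start, in Psat1 36 and 6 bases, and in Shmt1 47 bases. Psat1 is the gene with 2 promoters in the table, and the other, chr19:15924573-15924872, held no match. Phgdh and Psat1 differed 3.92-fold and 3.64-fold between polyps and Apc normal tissue, Shmt2 2.68-fold without a match, and Shmt1 was not called with one.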

How the data were processed

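RNA of 12 colorectal samples was hybridised to single-colour Agilent 4x44K arrays after labelling of 0.1 ug total RNA with Cy3, per the labels' protocols. The deposited scanner files hold intensity per spot on a linear scale, already background-subtracted by Feature Extraction 10.7.3.1 per the file headers, which record no scaling between arrays. The deposited table of the authors' processed values holds a linear ratio, with no word on how it was made. For at least 99.8% of entries it equalled, to within 1%, the scanner's processed signal over 1 constant for each array, with column medians of 0.9999 to 1.0.

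Control spots and spots flagged as outliers (1403 of the latter) were dropped, log2 signals were averaged per probe, and the 75th percentile of each array was subtracted. Of 39429 probes 27508 were named by accession, 3544 by symbol and 404 by synonym through a RefSeq table (GRCm38.p6, used for naming), while 7973 have the name in the file. The brightest probe stood for a gene, and was required to be well above background throughout at least 1 group of 4, which left 20084 genes for limma 3.58.1 under R 4.3.3 (two-sided, no fold minimum, threshold 0.05). The number of arrays limits the precision. Between 64.6% and 73.8% of spots were well above background, and none was saturated.

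Samples were grouped by title and genotype. Normal and polyp arrays with the same mouse number come from the same mouse and share a slide. Their deviations from the group means correlated across genes (0.455, 0.170, 0.143 and 0.282). Pairs of different mice gave −0.328 to 0.193, so the ranges overlapped. The 9 members and all lists were chosen with earlier results of these data known. Besides the members, 3 genes per list by smallest p in polyps against Apc normal tissue were named, 1 by smallest p in each other comparison if called, and the 3 nearest genes of 4 members. Replicates are separate mice by their numbers in the titles. The wild-type arrays shared slide 1, slide 2 held those of mice 103 and 106, and slide 3 those of mice 107 and 110, and each slide is also 1 scan. The steps were tested on simulated data. Alternatives were other scalings, normexp with quantile normalization, the deposited value table, other filters, the mean over probes, other fits, blocks for mouse or slide, and each array left out.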

Additional observations from a re-analysis of the deposited data

Results flagged for a closer look

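Of 39 groups of 4 arrays examined, 4 had a sample far from the others by Dixon's test at the 95% level, and chance gives about 1 in 20. Phgdh in wild-type tissue was lowest in mouse 102, at 0.33, where the other three were 0.91 to 0.99. The log2 ratio of Mthfd1l to Mthfd1 was lowest among polyps in mouse 107, at −0.60, with the others between −0.32 and −0.30. The log2 ratio of Shmt2 to Shmt1 was lowest among Apc normal samples in mouse 107, at −0.68, with the others between −0.03 and 0.01, and highest among polyps in mouse 103, at 1.76, with the others between 1.13 and 1.15.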

How the results depend on the processing

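The pairing was examined with the mouse number as a replicate block, which left 6 members higher and changed no member's call between polyps and Apc normal tissue (Mthfd2 adjusted p = 0.0280). With each slide alone, which leaves 2 arrays a group, 3 members were higher on slide 2 and 2 on slide 3, with differences above 0 for the 6 genes on both. Between Apc normal and wild-type tissue 1 member was called with slide as a random block, and leaving out 1 array at a time gave 0 to 1 members. The count of all called genes there was 34, 814 with the random block, 226 in a fit of all 12 arrays and 2 to 530 without 1 array. Counts of called members were scored for higher and for lower in each setting, and 118 of 122 were within 1.5 times the reported ones. The reported count of members called lower was 0 in each comparison, and a count of 0 in both fits was scored as unchanged. Much of the 118 comes from such counts of 0. Of 564 member differences, 18 lost and 3 gained a call and 8 changed sign. For polyps against Apc normal tissue, Aldh1l2 turned to 0.0087 with quantile normalization, 0.15 with array weights and 0.91 on slide 2 alone, and ranged from −0.72 to 0.84 over the fits that left out 1 array. Mthfd1 turned to 0.00995 with normexp, and Shmt1 to 0.0049 on slide 2 alone, with −0.11 to 0.032 without 1 array. Of 124 ratio differences, 8 changed sign. Shmt2 over Shmt1, between Apc normal and wild-type tissue, ranged from −0.036 to 0.26 without 1 array. Aldh1l2 over Mthfd1, between polyps and Apc normal tissue, was −0.29 with normexp and −0.65 to 1.02 without 1 array. The cause of these changes was not tested. Probes other than the brightest, chosen after seeing the data, kept direction and call.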

Other observations

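Further genes of the lists were looked at after their values were seen. Gart and Atic, whose proteins use formyl-tetrahydrofolate in purine synthesis, rose in polyps against Apc normal tissue by 0.68 ± 0.11 (limma adjusted p = 0.00136) and 0.51 ± 0.11 (adjusted p = 0.00761). The thymidylate synthase gene Tyms, with a difference of 0.32 ± 0.17 (limma adjusted p = 0.153), did not pass.

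Within the ATF4 list, Atf4 itself had a difference of 0.08 ± 0.13 (limma adjusted p = 0.664) and the asparagine synthetase gene Asns one of 0.30 ± 0.27 (adjusted p = 0.396). Chac1, a glutathione-degrading enzyme, rose by 1.46 ± 0.44 (adjusted p = 0.0266), while Ddit3, a transcription factor of the stress response, fell by 0.88 ± 0.17 (adjusted p = 0.00387). The serine transporter gene Slc1a4 rose by 1.03 ± 0.26 (adjusted p = 0.0132).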
